A study of Homo sapiens with 6 samples.

Results

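The genes for the proteins of the cytosolic ribosome were taken from the count table by name: RPL or RPS followed by a number and an optional A, with RPLP0, RPLP1, RPLP2, RPSA, RPL36AL, RPL22L1, RPL26L1, RPL39L, RPS27L and RPS4X. Names of pseudogenes do not match. This gave 82 of the 58302 genes in the table, 50 for the large subunit and 32 for the small subunit. All 82 had enough reads to be tested, among 14667 tested genes. They lie on 21 chromosomes, and 4 of them, RPL10, RPL36A, RPL39 and RPS4X, are on X.

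RNA was sequenced from hTert 1BR3 cells, forearm skin fibroblasts kept dividing by telomerase, in 2 groups. The MCM7 siRNA group (n = 3) had received a pool of 4 siRNAs against MCM7, part of the replicative DNA helicase, and the control siRNA group (n = 3) non-targeting siRNAs. All were transfected while cycling and then serum-starved, which stops division and induces primary cilia, so depletion could begin before division stopped. The samples come from 1 line, and nothing in the labels says that replicates were separate cultures, so p-values reflect only the variation among these samples, possibly technical. The comparison asks how RNA levels of starved, ciliated cells differ after loss of MCM7.

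A ribosome carries most of these proteins in a single copy, and their mRNAs are made in high amounts in every cell. In mammals most of these mRNAs begin with a C followed by a run of pyrimidines, the 5′ terminal oligopyrimidine (TOP) motif, through which mTORC1 and the RNA-binding protein LARP1 set their translation and stability. In resting cells the control is known to act more on translation than on mRNA level, which is the only quantity measured here.

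MCM7 itself was at 3.51, 3.33 and 3.17 CPM (read counts scaled to library size) in the MCM7 siRNA libraries, against 27.3, 29.6 and 31.2 CPM in the control siRNA libraries. The edgeR log2 fold change was −3.15 (SE 0.10, adjusted p = 1.40e-19). Total counts were 13721281 to 23969024 in the MCM7 siRNA libraries and 18669386 to 21380345 in the control siRNA libraries. Markers of fibroblasts summed to 71940 to 74423 CPM with MCM7 siRNA and to 67944 to 73715 CPM with control siRNA. The summed markers of epithelial, endothelial, immune and melanocyte cells stayed at or under 1.04 CPM in every library. Within the fibroblast list, COL3A1, LUM and PDGFRB rose and VIM fell.

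The ribosomal protein genes took nearly the same share of the reads in both groups. They held 4.55%, 4.61% and 4.52% of all counts in the MCM7 siRNA libraries, against 4.68%, 4.51% and 4.55% in the control siRNA libraries. The ranges overlapped, and the means of 4.56% ± 0.05 and 4.58% ± 0.09 (SD, n = 3 each) differed by less than the spread between libraries. Large subunit genes held 2.93% ± 0.01 with MCM7 siRNA and 2.97% ± 0.06 with control siRNA (SD, n = 3 each). Small subunit genes held 1.63% ± 0.04 with MCM7 siRNA and 1.61% ± 0.03 with control siRNA (SD, n = 3 each). These are shares of a library: in bulk RNA, fewer cells of a type and less RNA per cell cannot be told apart, and the amount of ribosomal protein mRNA per cell is not measured.

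Of the 82 genes, 4 passed the edgeR test at an adjusted p under 0.05, which is 4.88% of them, against 12.8% of all tested genes. RPS27 was the 1 member that rose, where 6.18% of all tested genes did. RPL22L1, RPL3 and RPL12 fell, where 6.65% of all tested genes did. Under the study's rule, a call by edgeR and also by a second tool (here DESeq2), the count was the same 1 higher and 3 lower, against 8.99% of all tested genes. At an unadjusted p under 0.05 there were 11 members, or 13.4%, against 26.1% of all tested genes. The lower share among members was not seen without MCM7 siRNA replicate 3, where 15.9% of members and 15.2% of all tested genes were called. Without any other single library, 1.22% to 3.66% of members were called, against 7.71% to 11.4% of all tested genes.

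The median log2 fold change of the 82 members was 0.01, with 45 above and 37 below 0, and that of all tested genes was −0.00. By subunit, the median was −0.00 over the 50 large subunit genes and 0.03 over the 32 small subunit genes. Sizes of change were small too: the median absolute log2 fold change was 0.05 for the members, 0.08 for 74 tested mitochondrial ribosomal protein genes and 0.12 for all tested genes. The middle 90% of the members lay between −0.13 and 0.11, against −0.38 and 0.37 for all tested genes.

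**Figure D1:**
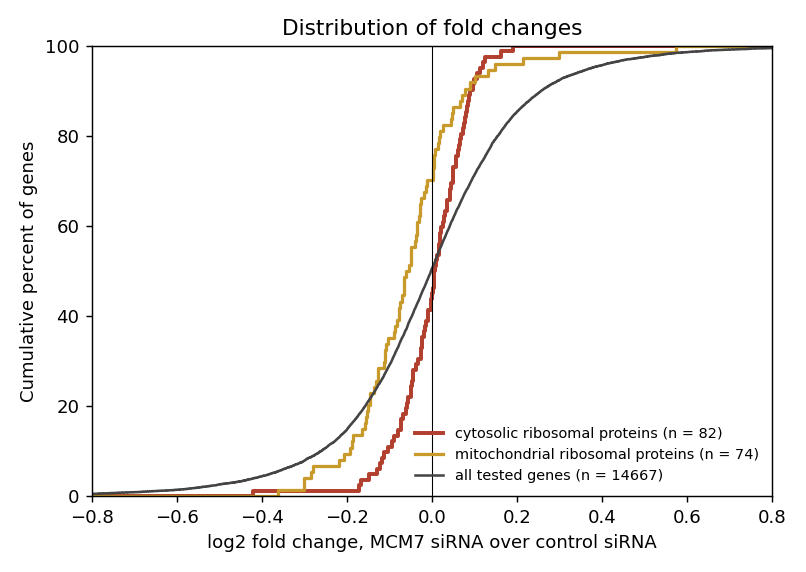
Cumulative distribution of edgeR log2 fold changes, MCM7 siRNA over control siRNA (x axis), as the percent of genes at or below each value (y axis), for 82 cytosolic ribosomal protein genes, 74 mitochondrial ribosomal protein genes and 14667 tested genes. The cytosolic genes form the steepest curve, with their middle 90% between −0.13 and 0.11, and the mitochondrial genes are displaced to the left, with a median of −0.06; the x axis ends at ±0.8.

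High counts make small differences easier to detect, so the members were set beside the 481 other genes at or above the lower quartile of the members (242 CPM). Of these 481 genes, 165 were called, or 34.3%, and their median absolute log2 fold change was 0.10. The median SE was 0.05 in both sets. The 95% interval of the fold change lay within 1.2-fold in either direction for 76 of 82 members, or 92.7%, against 71.1% of the other abundant genes and 34.9% of all tested genes. It lay within 1.5-fold for 80 of 82. The exceptions at 1.2-fold were RPL22L1, RPL3, RPL28, RPL26L1, RPL17 and RPL36A.

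**Figure D2:**
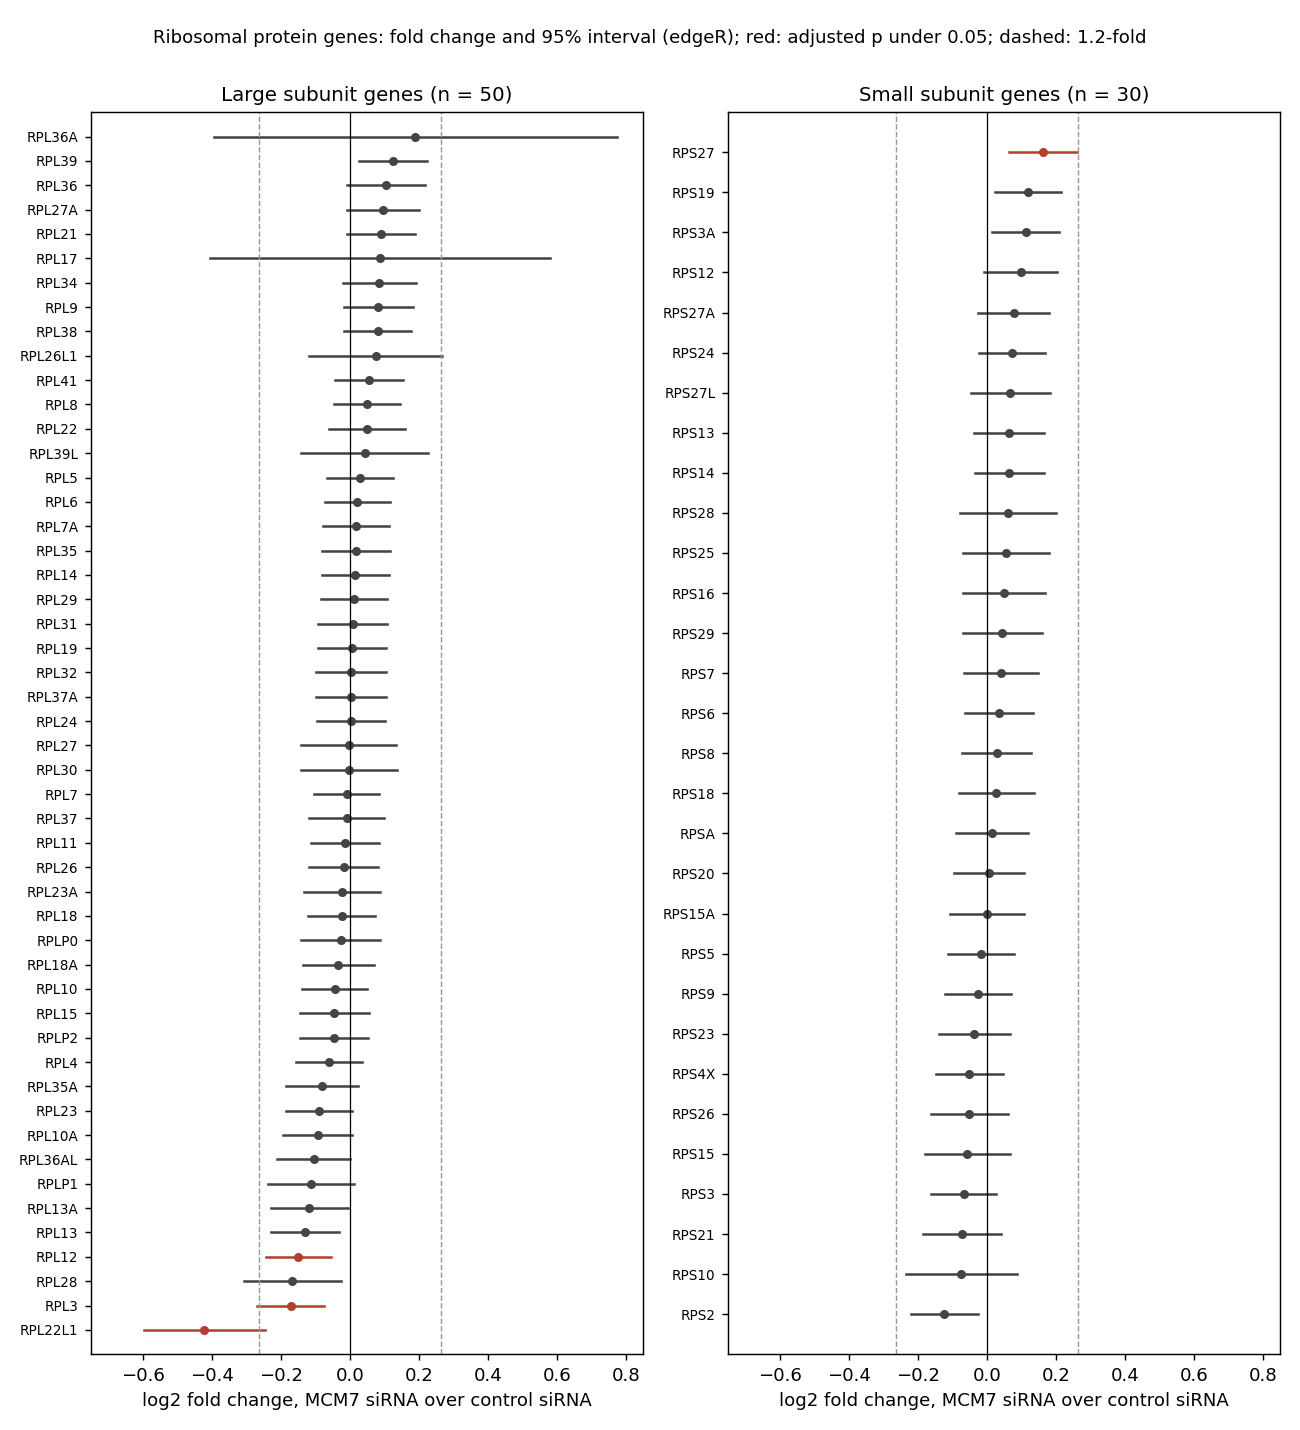
Log2 fold change (x axis, MCM7 siRNA over control siRNA) of large (left) and small (right) subunit genes, with its 95% interval from edgeR. The 4 called genes are red, dashed lines mark 1.2-fold, and the intervals of 74 of the 80 genes drawn stay between the dashed lines; 2 small subunit genes whose intervals also lie within 1.2-fold are not drawn.

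RPL22L1, the paralogue of the RNA-binding large subunit protein RPL22, had the largest change of a called member. It lies on GRCh38 chromosome 3 at 170864875-170870208, on the minus strand. It was at 14.5, 12.8 and 12.4 CPM with MCM7 siRNA, against 18.6, 17.5 and 16.6 CPM with control siRNA, from 198 to 296 and from 348 to 351 reads. Every MCM7 siRNA library was below every control library. Its level was 74.7% of control (log2 fold change −0.42, SE 0.09, edgeR adjusted p = 0.000976). That call held in each of the 6 fits that left out 1 library.

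RPL22 itself did not pass the test. It was at 537, 554 and 473 CPM with MCM7 siRNA, against 527, 482 and 502 CPM with control siRNA, and the groups overlapped (log2 fold change 0.05, SE 0.05, edgeR adjusted p = 0.617). Per length, by the authors' RPKM, RPL22L1 stood at 5.67%, 4.87% and 5.51% of RPL22 in the MCM7 siRNA libraries, against 7.45%, 7.63% and 6.96% in the control siRNA libraries. In the mouse, Rpl22 is known to repress the RNA of its paralogue.

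RPL3, a core large subunit protein next to the peptidyl transferase centre, is on chromosome 22 at 39312882-39320389, on the minus strand. It was at 1127, 1190 and 1122 CPM with MCM7 siRNA, against 1290, 1293 and 1289 CPM with control siRNA. The control libraries were almost equal and all MCM7 siRNA libraries were below them, at 88.8% of control (log2 fold change −0.17, SE 0.05, edgeR adjusted p = 0.0132). This call ended without control siRNA replicate 3 (edgeR adjusted p = 0.0638) and without MCM7 siRNA replicate 1 (edgeR adjusted p = 0.0855).

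RPL12, a protein at the base of the large subunit stalk, is on chromosome 9 at 127447674-127451406, on the minus strand. It was at 526, 499 and 530 CPM with MCM7 siRNA, against 583, 571 and 571 CPM with control siRNA, again with no overlap. Its level was 90.2% of control (log2 fold change −0.15, SE 0.05, edgeR adjusted p = 0.0311). This call ended without any 1 of the control siRNA replicates 1, 2 and 3 (edgeR adjusted p = 0.106, 0.0695 and 0.0988), and without MCM7 siRNA replicates 1 or 2 (edgeR adjusted p = 0.0811 and 0.0948).

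RPS27, a zinc finger protein of the small subunit, is on chromosome 1 at 153990762-153992155, on the plus strand. It was at 331, 309 and 316 CPM with MCM7 siRNA, against 297, 282 and 274 CPM with control siRNA. All MCM7 siRNA libraries were above all control libraries, at 112% of control (log2 fold change 0.16, SE 0.05, edgeR adjusted p = 0.0232). Its call ended without control siRNA replicates 2 or 3 (edgeR adjusted p = 0.0907 and 0.164) and without MCM7 siRNA replicate 1 (edgeR adjusted p = 0.152). All 4 called members kept their direction but missed the threshold in limma on log2 RPM (adjusted p = 0.0511 for RPL22L1 and 0.205 for RPL12, the lowest and the highest of the 4).

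**Figure D3:**
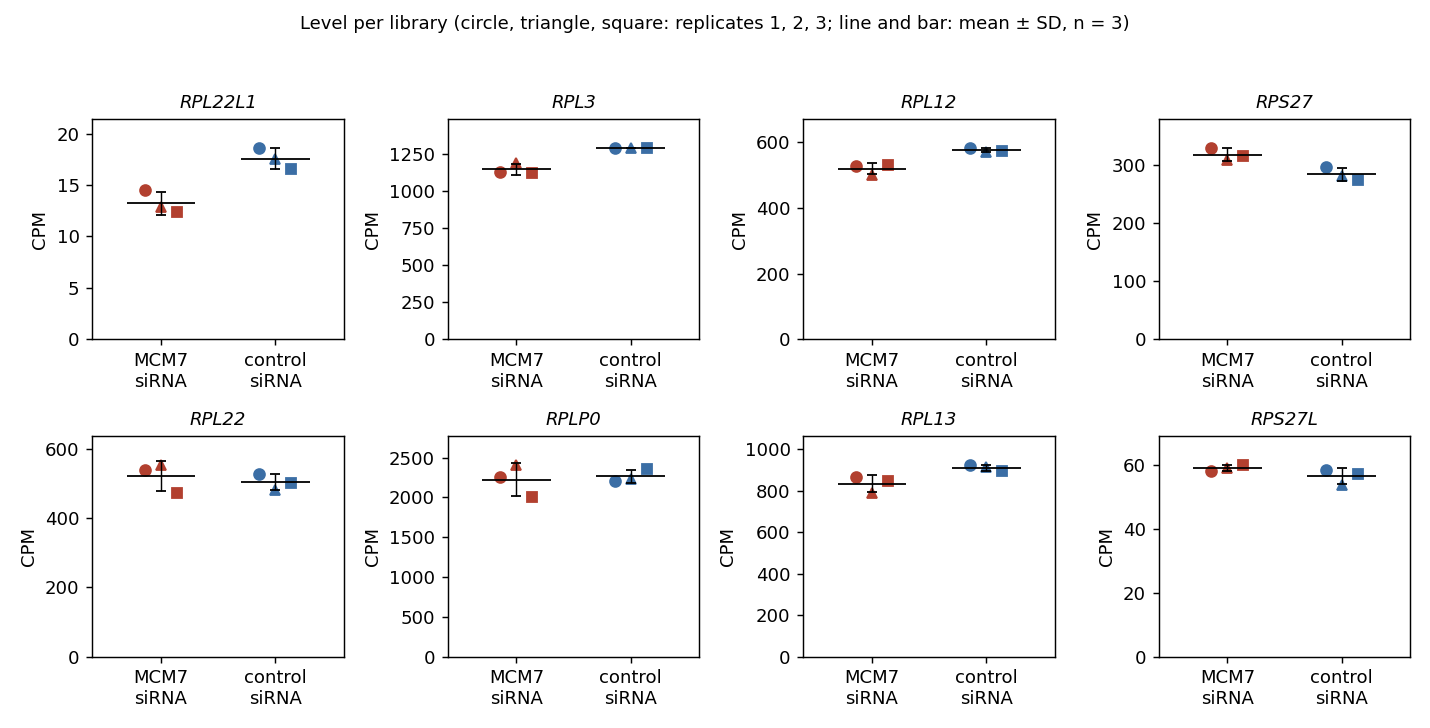
Level in CPM (y axis, from 0) of 8 ribosomal protein genes in 3 MCM7 siRNA libraries (red, left) and 3 control siRNA libraries (blue, right); shapes mark replicates and black lines the mean ± SD. The top row holds the 4 called genes, whose groups do not overlap; in the bottom row RPL22, RPLP0 and RPS27L overlap, and RPL13 does not overlap but missed the threshold.

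Counted without a model, the CPM of the 2 groups did not overlap for 15 members, or 18.3%, against 29.6% of all tested genes. Of the 15, 5 were higher with MCM7 siRNA (RPL39, RPS19, RPS24, RPS27 and RPS3A) and 10 were lower (RPL10, RPL12, RPL13, RPL22L1, RPL23, RPL3, RPL4, RPS2, RPS23 and RPS3). The members just outside the threshold were RPL13, RPL39, RPS2 and RPS19, with edgeR adjusted p-values between 0.0744 and 0.0883. RPL13 was at 867, 787 and 846 CPM with MCM7 siRNA, against 925, 914 and 897 CPM with control siRNA (log2 fold change −0.13). RPS19, a small subunit protein mutated in Diamond-Blackfan anaemia, averaged 509 ± 7 CPM with MCM7 siRNA and 468 ± 14 CPM with control siRNA (SD, n = 3 each, log2 fold change 0.12).

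Among the other paralogue pairs, no gene but RPS27 passed the test. RPS27L averaged 59.1 ± 0.9 CPM with MCM7 siRNA and 56.4 ± 2.4 CPM with control siRNA (SD, n = 3 each), a log2 fold change of 0.07 with a 95% interval of −0.05 to 0.18. RPL39L, a paralogue known from testis, averaged 18.4 ± 2.3 CPM with MCM7 siRNA and 18.0 ± 1.7 CPM with control siRNA (SD, n = 3 each). Its partner RPL39, which lines the peptide exit tunnel, averaged 186 ± 5 CPM with MCM7 siRNA and 171 ± 4 CPM with control siRNA (SD, n = 3 each, log2 fold change 0.12, edgeR adjusted p = 0.0826).

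Levels of RPL26 and RPL26L1 overlapped between the groups. RPL26 averaged 577 ± 21 CPM with MCM7 siRNA and 585 ± 27 CPM with control siRNA (SD, n = 3 each). RPL26L1 averaged 13.5 ± 0.8 CPM with MCM7 siRNA and 12.9 ± 1.6 CPM with control siRNA (SD, n = 3 each). RPL36AL, the gene that carries most uniquely placed reads of its pair, averaged 107 ± 4 CPM with MCM7 siRNA and 115 ± 5 CPM with control siRNA (SD, n = 3 each), a log2 fold change of −0.11 with an edgeR adjusted p of 0.196.

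The stalk proteins RPLP0, RPLP1 and RPLP2, which recruit the elongation factors, did not pass the test. RPLP0, often a reference gene for quantitative PCR, was at 2261, 2410 and 2002 CPM with MCM7 siRNA, against 2210, 2228 and 2360 CPM with control siRNA. The 2 groups overlapped, and the log2 fold change was −0.03 with a 95% interval of −0.14 to 0.09. RPLP1 was at 982, 972 and 1134 CPM with MCM7 siRNA, against 1152, 1194 and 992 CPM with control siRNA (log2 fold change −0.11, edgeR adjusted p = 0.251). RPLP2 averaged 378 ± 14 CPM with MCM7 siRNA and 390 ± 15 CPM with control siRNA (SD, n = 3 each).

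RPL5 and RPL11 bind 5S rRNA and, when free of the ribosome, bind and inhibit the ubiquitin ligase MDM2. RPL5 averaged 762 ± 23 CPM with MCM7 siRNA and 746 ± 21 CPM with control siRNA (SD, n = 3 each), a log2 fold change of 0.03 with a 95% interval of −0.07 to 0.13. RPL11 averaged 1214 ± 34 CPM with MCM7 siRNA and 1225 ± 40 CPM with control siRNA (SD, n = 3 each), a log2 fold change of −0.01 with a 95% interval of −0.11 to 0.08. Neither passed the test, and both intervals exclude a change of 1.2-fold.

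RPS6, RPS27A, RPSA and RPS4X did not pass the test. RPS6, the substrate of S6 kinase below mTORC1, averaged 1608 ± 63 CPM with MCM7 siRNA and 1570 ± 48 CPM with control siRNA (SD, n = 3 each). RPS27A, which encodes a ubiquitin fused to its ribosomal protein, averaged 313 ± 19 CPM with MCM7 siRNA and 297 ± 9 CPM with control siRNA (SD, n = 3 each, log2 fold change 0.08, edgeR adjusted p = 0.349). RPSA, also known as the laminin receptor, averaged 494 ± 32 CPM with MCM7 siRNA and 489 ± 17 CPM with control siRNA (SD, n = 3 each). RPS4X, the X-linked gene for its protein, averaged 1041 ± 7 CPM with MCM7 siRNA and 1078 ± 47 CPM with control siRNA (SD, n = 3 each).

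Levels of the members differed far more between genes than between groups. Per length, by the authors' RPKM, 54 members were at or above 100 RPKM and 4 under 10 RPKM. RPL41, which encodes the shortest of these proteins, was among the highest, at 914 ± 13 RPKM with MCM7 siRNA and 873 ± 42 RPKM with control siRNA (SD, n = 3 each). RPL11 was lower, at 613 ± 19 RPKM with MCM7 siRNA and 614 ± 21 RPKM with control siRNA (SD, n = 3 each), a gap wider than the spread within a group.

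At the low end were RPL36A (0.27 ± 0.07 RPKM with MCM7 siRNA and 0.24 ± 0.07 RPKM with control siRNA) and RPL17 (0.71 ± 0.19 RPKM with MCM7 siRNA and 0.63 ± 0.15 RPKM with control siRNA, SD, n = 3 each). RPS27L followed, at 6.50 ± 0.12 RPKM with MCM7 siRNA and 6.16 ± 0.27 RPKM with control siRNA (SD, n = 3 each). RPL17 had 30, 36 and 30 reads with MCM7 siRNA, against 32, 23 and 39 with control siRNA, and RPL36A had 16, 16 and 31 reads with MCM7 siRNA, against 13, 18 and 26 with control siRNA. These values rest on few reads and are uncertain. In GENCODE 44, 96.9% of the canonical RPL17 transcript lies in exons shared with the read-through gene RPL17-C18orf32 on the same strand. For RPL36A, 43.8% is shared with RPL36A-HNRNPH2. RPS10 (84.0%) and RPL26 (65.3%) also share much of their canonical transcript with another annotated gene on the same strand, and reads in shared exons can be lost from both genes. The authors counted reads on a different annotation from GENCODE 44. RPL26 still averaged 577 CPM with MCM7 siRNA and 585 CPM with control siRNA. Whether shared exons lowered any of these counts was not tested. The length behind an RPKM covers all exons of a gene and reached 9127 bases for RPS27L and 9743 for RPS29, which lowers their RPKM.

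Groups differed in how closely their libraries agreed. For the 80 members with at least 100 reads in every library, the SD of the log2 ratio between 2 libraries was 0.09 to 0.17 within MCM7 siRNA and 0.07 to 0.09 within control siRNA. Between the groups it was 0.10 to 0.15, which overlaps the range within MCM7 siRNA. For the other abundant genes, library pairs from different groups differed by 0.17 to 0.22, above the 0.09 to 0.14 within MCM7 siRNA and the 0.07 to 0.09 within control siRNA.

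The widest pair was MCM7 siRNA replicates 2 and 3. Between them, 16 of the 80 members differed by over 0.2 on the log2 scale, in both directions, with extremes of −0.44 for RPL30 and 0.44 for RPL28. RPL28 was at 624, 562 and 765 CPM with MCM7 siRNA, against 760, 733 and 698 CPM with control siRNA, so that replicate 3 stood with the controls. RPS25 was at 936, 915 and 740 CPM with MCM7 siRNA, against 854, 832 and 805 CPM with control siRNA, and here replicate 3 fell on the other side of the controls.

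The count of called members changed with this library. Without MCM7 siRNA replicate 3, 13 members were called, 5 higher and 8 lower, a share of 15.9% beside 15.2% of all tested genes, and these included the same 4 genes and RPL13, RPL13A, RPL27A, RPL28, RPL36, RPL39, RPLP1, RPS2 and RPS25. RPL28 then had a log2 fold change of −0.30 (edgeR adjusted p = 4.63e-05). A loess scaling tested with limma, added after this spread was seen, called 0 members, beside 2.19% of all tested genes. At an unadjusted p under 0.05 in limma, 3 members were higher and 3 lower. Both the test and the scaling differ here from the main fit. With limma on log2 RPM, without loess, 0 members were called too, beside 3.5% of all tested genes. Across the 80 genes, the difference between replicates 3 and 2 had a Spearman rho of 0.22 with transcript length and 0.20 with GC content, as a description over genes of the same libraries.

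**Figure D4:**
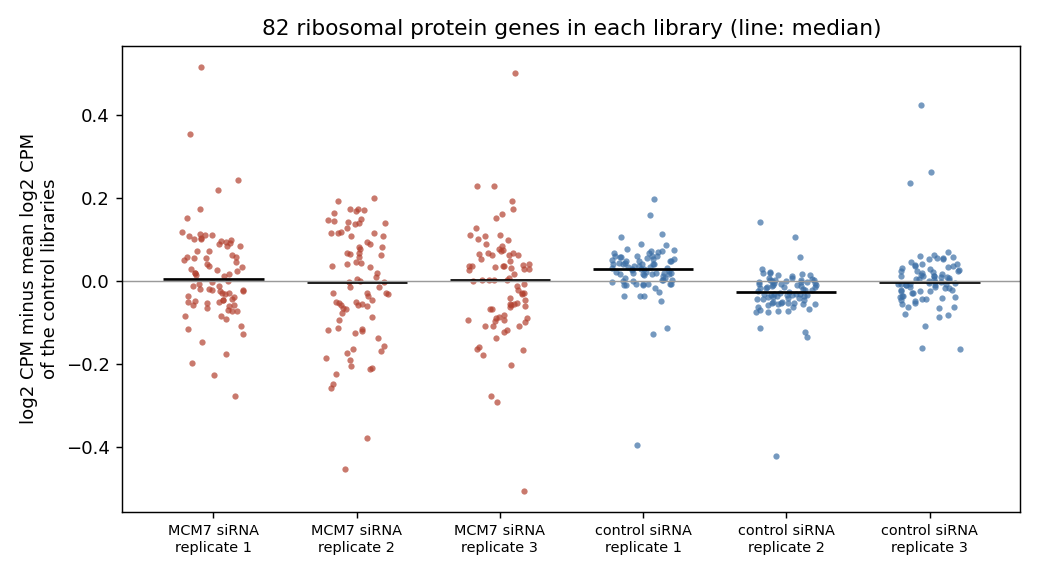
Log2 CPM of each of the 82 genes minus its mean in the control siRNA libraries (y axis), by library, with MCM7 siRNA in red on the left, control siRNA in blue on the right and the median as a line. Medians lie between −0.03 and 0.03 in every library, and the middle 90% of genes is wider in the MCM7 siRNA libraries (−0.22 to 0.17 in replicate 2) than in the control siRNA libraries (−0.08 to 0.06 in replicate 3); part of this is set by the use of the control mean as zero.

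Ribosomal protein genes have many processed pseudogenes, copies of their mRNA inserted elsewhere in the genome, to which short reads can be assigned. The table names 1118 of them, for 76 of the 82 members, of which 525 had no read in any library and 308 were tested. They held 10.2% to 10.6% of the reads of a gene and its copies in the MCM7 siRNA libraries, and 10.3% to 10.5% in the control siRNA libraries. For 3 members, RPL17, RPL36A and RPS23, more than 50% of these reads were on pseudogenes: RPL17 had 3636 reads on its copies and 190 on the gene over the 6 libraries, and the share on copies was 94.0% for RPL36A and 50.9% for RPS23. RPL22L1, RPL26L1, RPL39L and RPS27L have no named copy, so no named copy shares the reads of RPL22L1.

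Of the 308 tested pseudogenes, 132 had at least 100 reads in every library, and fewer reads make a call harder. In all, 2 of the 308 were called higher and 5 lower. This is 2.27% against 12.8% of all tested genes, not matched for depth. Their median log2 fold change was 0.01. RPL12 had 3 of the called copies, RPL12P12, RPL12P4 and RPL12P8, with log2 fold changes of −0.24, −0.20 and −0.23 (edgeR adjusted p = 0.0136, 0.0231 and 0.0175), and 13 of its 15 tested copies were below 0. RPS27P21 rose, like RPS27, with a log2 fold change of 0.25 (edgeR adjusted p = 0.0103). RPS2P48 (−0.28) and RPL13AP5 (−0.18) fell while RPS2 and RPL13A missed the threshold, and RPL23AP3 rose, with 20, 35 and 64 reads with MCM7 siRNA, against 25, 26 and 17 with control siRNA.

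Among the 132 pseudogenes with at least 100 reads in every library, of 44 parent genes, 88 had the same sign as their parent. The log2 fold changes of copy and parent had a Pearson r of 0.59 and a Spearman rho of 0.57, as a description over genes from the same 6 libraries, of which several share a parent. Whether the reads on a copy come from the copy or its parent was not tested.

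**Figure D5:**
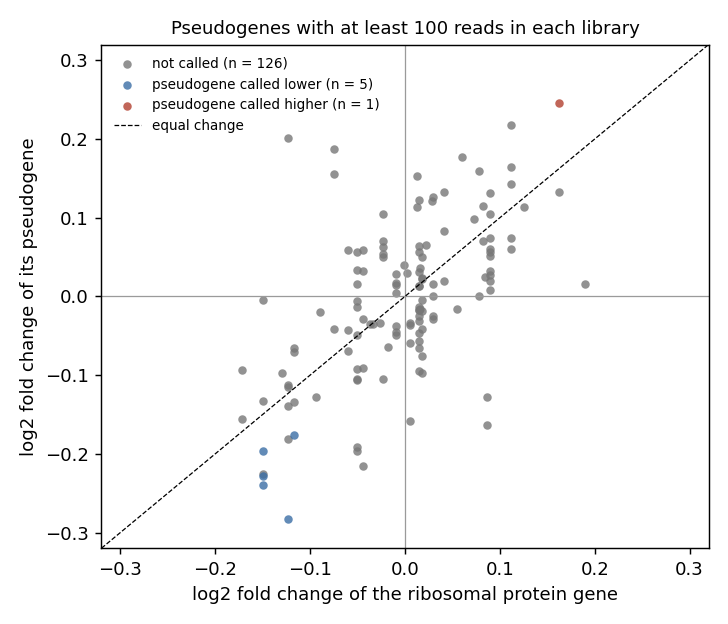
Log2 fold change (MCM7 siRNA over control siRNA) of 132 pseudogenes (y axis) against that of the ribosomal protein gene they derive from (x axis), with called pseudogenes coloured and the dashed line marking equal change. Points rise along the dashed line (Pearson r 0.59), the 3 lower RPL12 copies lie at the lower left and RPS27P21 at the upper right.

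Start sites were read from RefSeq (GRCh38.p14) for the 66 members in its promoter table, to set the changes beside the TOP motif. A TOP start was counted where the first transcribed base was C and began a run of at least 5 pyrimidines (C or T) on the sense strand. It was present in 43 of 66 members, or 65.2%, against 4.04% of all 27305 genes in that table and 7.35% of 68 mitochondrial ribosomal protein genes. The called members and their paralogues are shown as 10 bases before the start and 20 from it, 5′ to 3′, with a TOP run in capitals.
RPL22L1: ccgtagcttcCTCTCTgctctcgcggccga
RPL22: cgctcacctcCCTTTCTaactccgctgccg
RPL3: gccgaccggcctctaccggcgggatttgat
RPL12: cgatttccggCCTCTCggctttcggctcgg
RPS27: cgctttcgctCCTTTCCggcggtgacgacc
RPS27L: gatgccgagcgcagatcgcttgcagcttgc

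These windows are at chr3:170870176-170870205 (minus strand) for RPL22L1, chr1:6199576-6199605 (minus) for RPL22, chr22:39319604-39319633 (minus) for RPL3, chr9:127451387-127451416 (minus) for RPL12, chr1:153990752-153990781 (plus) for RPS27 and chr15:63157458-63157487 (minus) for RPS27L. RPL22L1, RPL12 and RPS27 have a TOP run at the start, and they include genes called in both directions. RPL3 starts with a run of 4, under the limit of 5, but the run is 5 when counted from the C 1 base before the annotated start. RPS27L has no pyrimidine run at its start. Members with a TOP start had a median log2 fold change of 0.02 (n = 43, 3 called), where 12.8% of all tested genes were called. Those without one at the annotated base had a median of −0.00 (n = 23, 1 called). This split depends on the annotated base. With runs that begin with a C within 5 bases of it also counted, 52 of 66 members (78.8%) had one, against 21.1% of all genes in that table.

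Other translation factors whose mRNAs carry a TOP motif, gave 20 tested genes, of which 0 rose and 3 fell, which is 15.0% called and near the 12.8% of all tested genes, with a median log2 fold change of −0.07. The 3 were EIF3F, a subunit of initiation factor 3 (−0.17, edgeR adjusted p = 0.0122), the elongation factor EEF2 (−0.16, edgeR adjusted p = 0.0316) and RACK1, a scaffold on the small subunit (−0.15, edgeR adjusted p = 0.0353). At an unadjusted p under 0.05 there were 6 of the 20, beside 26.1% of all tested genes. EEF1G was listed at 0 in every library.

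Mitochondrial ribosomal proteins, which build the separate ribosome of mitochondria, had 1 higher and 5 lower of 74 tested genes and a median log2 fold change of −0.06, with 52 below 0. MRPL4 (−0.36, edgeR adjusted p = 0.00312), MRPS2 (−0.28, edgeR adjusted p = 0.00865) and MRPL52 (−0.30, edgeR adjusted p = 0.0142) fell, and MRPS6 rose (0.30, edgeR adjusted p = 0.0136). Their share called, 8.11%, was below the 12.8% of all tested genes. Their share of the reads was 0.157% to 0.159% in the MCM7 siRNA libraries and 0.163% to 0.168% in the control siRNA libraries.

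Of 14 genes of mTORC1 and LARP1 signalling, 4 rose and 1 fell, which is 35.7% called against 12.8% of all tested genes, with a median log2 fold change of 0.00. EIF4EBP2, a repressor of cap-dependent translation, was at 135, 135 and 136 CPM with MCM7 siRNA, against 103, 107 and 108 CPM with control siRNA (log2 fold change 0.35, SE 0.05, edgeR adjusted p = 6.76e-06). Both the kinase MTOR (0.20, edgeR adjusted p = 0.0215) and its upstream inhibitor TSC1 (0.22, edgeR adjusted p = 0.0234) rose, and MLST8, a subunit of the mTOR complexes, fell (−0.26, edgeR adjusted p = 0.00408). The members that rose include both activating and inhibiting parts.

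Of 9 dedicated chaperones and late assembly factors of ribosomal proteins, 0 passed the edgeR test, where 12.8% of all tested genes did. Their median log2 fold change was −0.11. An unadjusted p under 0.05 was found for 3 of the 9, beside 26.1% of all tested genes. TSR2, the chaperone of RPS26, averaged 25.7 ± 1.1 CPM with MCM7 siRNA and 28.7 ± 0.7 CPM with control siRNA (SD, n = 3 each, edgeR adjusted p = 0.100). GRWD1, the chaperone of RPL3, averaged 17.0 ± 1.1 CPM with MCM7 siRNA and 19.1 ± 1.0 CPM with control siRNA (SD, n = 3 each, edgeR adjusted p = 0.154).

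Of 4 genes of the MDM2 and p53 axis, 2 rose and 0 fell, where 12.8% of all tested genes were called. The 2 were MDM2, the ligase that free RPL5 and RPL11 bind, and CDKN1A. Free RPL5 and RPL11 protein was not measured. MDM2 was at 72.3, 75.9 and 66.7 CPM with MCM7 siRNA, against 59.5, 62.5 and 58.3 CPM with control siRNA (log2 fold change 0.25, SE 0.06, edgeR adjusted p = 0.00324). CDKN1A, an inhibitor of cyclin-dependent kinases, averaged 680 ± 21 CPM with MCM7 siRNA and 612 ± 14 CPM with control siRNA (SD, n = 3 each, log2 fold change 0.15, edgeR adjusted p = 0.0311). MDM4, a relative of MDM2, missed the threshold (log2 fold change 0.42, edgeR adjusted p = 0.0853).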

How the data were processed

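RNA was sequenced from 6 samples of the hTert 1BR3 line, 3 with MCM7 siRNA and 3 with control siRNA. The authors made stranded poly(A)+ libraries, read single-end. Reads were mapped to GRCh38 with TopHat2 2.1.0 and assigned to genes with featureCounts 1.5.0, after extraction with bcl2fastq 1.8.4 (versions from the submitters' processing notes). Multiply mapping reads were discarded and strand was respected, so members with near-identical pseudogenes can lose reads or share them.

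The authors deposited raw counts per gene. The deposited RPM values were these counts scaled to the reads assigned to genes in each library, and the deposited RPKM values were RPM divided by 1 length per gene over all its exons. Tests used the counts. RPKM was used for levels between genes, and RPM, with a pseudocount of 0.5, for 1 alternative. No per-sample column was left unused (0).

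Genes were kept with filterByExpr of edgeR, which left 14667 of 58302 genes with no less than 99.9% of each library's reads. CPM values were scaled with TMM factors. Differential expression was tested with the two-sided quasi-likelihood test of edgeR 4.0.16 in R 4.3.3, with group as the only term and Benjamini-Hochberg adjustment over all tested genes at a threshold of 0.05. Standard errors (SE) and 95% intervals are those of this fit. Alternatives were other scalings, no filter, DESeq2 1.42.0, limma 3.58.1, a replicate block, thinning to the smallest library and leaving out each library. Adjusted p-values that DESeq2 left missing (2275 genes) were kept as missing. Python 3.11.15 and matplotlib 3.10.9 were used for annotation and figures.

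Positions are those of GENCODE 44 on GRCh38, and start-site sequences are those of RefSeq. The members, gene lists, motif and rule for named genes were chosen with earlier results of these data known. The rule took MCM7, the called members, the paralogue pairs, the stalk proteins, RPL5, RPL11, RPS27A, RPS6, RPSA, RPS4X, the 3 highest and 3 lowest members by RPKM, and up to 4 genes with the smallest p of each other list. Some genes that this rule takes are not reported here. Genes named beyond this rule were picked with their values in view.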

Additional observations from a re-analysis of the deposited data

How the results depend on the processing

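Over the 82 genes, the median change (log2) stayed between −0.01 and 0.02 over 17 alternatives, and the share of the reads never moved by more than the spread between libraries. The 4 called genes kept their direction in 17 of 17 alternatives, and kept an adjusted p under 0.05 in 15 (RPL22L1), 13 (RPL3), 12 (RPS27) and 9 (RPL12). limma on log2 RPM called 0 higher and 0 lower members (1 and 3 at an unadjusted p under 0.05) and 513 genes in all. The loess scaling, chosen after seeing the data and also tested with limma, called 0 and 0 members (3 and 3 unadjusted). It called 321 genes in all. The cause of these lower counts was not tested. limma-voom called 1 member higher and 5 lower, or 7.32% of the members beside 12.6% of all tested genes. Leaving out 1 library at a time gave 0 to 5 members higher, 1 to 8 lower and 1151 to 2265 genes in all. The highest counts of members came without MCM7 siRNA replicate 3, and the lowest count of all genes without control siRNA replicate 3. Scalings other than loess, no filter, DESeq2 and thinning left the counts of members within 1 of the main ones.

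The replicate block left 1 member higher and 3 lower, with 1959 genes called in all. Deviations of samples of the same replicate number had correlations of −0.01, −0.02 and −0.01, beside −0.01 to 0.03 for different numbers. Values near 0 over all tested genes, from 3 libraries a group, cannot exclude pairs. The labels do not name pairs, while the paper used paired t-tests for its qPCR checks of MCM7 knockdown. The main fit did not take the numbers as pairs. Depth limits RPL17 and RPL36A, with 13 to 39 reads a library.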
